A study of Homo sapiens with 21 samples.

Results

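In the triple-negative breast cancer cell line HCC1806, the change in gene expression in cells labelled as overexpressing 3 splicing factors together was set against the sum of the changes in cells labelled for each factor alone. The RNA count of SRSF2, 1 of the 3, was not higher in the libraries labelled for it, as given with its values before the other results. For each gene the departure from additivity was the log2 effect of 3XSR against 3XCTL minus the sum of the log2 effects of 1xSRSF2, 1xSRSF3 and 1xSRSF7, each against 1xCtrl. A departure of 0 means that the fold change of the joint line equals the product of the fold changes of the single lines. The contrast uses all 18 libraries with these labels of the 21 in the series, 3 in each of 6 groups. The 3 libraries of MYC-overexpressing cells are not part of it.

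SRSF2, SRSF3 and SRSF7 are SR proteins, RNA-binding proteins with arginine- and serine-rich tails that bind exons, recruit the splicing machinery and also act in RNA export, decay and translation. SR proteins regulate their own and each other's transcripts, often through exons that send the mRNA to nonsense-mediated decay. HCC1806 is a basal-like line with squamous features, and several SR proteins are studied as oncogenes in breast tumours.

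All cells were HCC1806 grown as attached cultures and collected close to confluence. Per the labels, 3XSR cells overexpressed SRSF2, SRSF3 and SRSF7 together and 3XCTL cells were their control. The cells of 1xSRSF2, 1xSRSF3 and 1xSRSF7 each overexpressed the named factor, and 1xCtrl cells were the control for a single plasmid. The labels give no vector, promoter or clone for these lines, and nothing says that replicates were separate cultures, so the p-values measure the spread between these libraries only. The joint and single lines came in separate count tables, each with its own control, so any difference between the tables that acts on control and treated cells alike cancels in the departure.

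Libraries held 143269192 to 303323552 counts, and 24654 genes passed the filter on low counts. Replicates lay within 0.108 to 0.218 of their group mean (root mean square of log2 CPM over 11487 genes at 5 CPM or more, where CPM is the count scaled to library size), except 1xCtrl replicate 2 at 0.292. Because 1xCtrl enters the departure 3 times, it carries 64.3% of its variance at equal spread. The spread was not equal: 1xCtrl replicates 2 and 3 lay farthest from their group mean of all libraries (0.292 and 0.218). The fit gives each gene 1 spread for all 6 groups. The SE, intervals and p-values of departures may therefore understate the spread of 1xCtrl. Keratin 5 (KRT5, 1568 to 2687 CPM) and TP63 (138 to 233 CPM) of basal epithelium and the epithelial adhesion gene EPCAM (524 to 702 CPM) were high in all 18 libraries. Of 16 leukocyte, endothelial and stromal markers, 14 stayed at or below 2.69 CPM in each library. The exceptions were CD68 (5.94 to 31.7 CPM) and LUM (5.40 to 39.8 CPM), and CD3E and ADIPOQ were at 0 in 15 and 16 libraries. The oestrogen receptor gene ESR1, low or lost in triple-negative tumours, was at 6.42 to 11.4 CPM.

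The overexpressed genes were examined first. SRSF2 was not raised where the labels say it should be: it stood at 400.1, 426 and 396 CPM in 3XCTL and 373, 399 and 388 CPM in the libraries labelled 3XSR, and at 445, 423 and 479 CPM in 1xCtrl and 375, 405 and 411 CPM in those labelled 1xSRSF2. Its log2 effect was -0.074 (SE 0.055, edgeR adjusted p = 0.371) in the first pair and -0.18 (SE 0.055, edgeR adjusted p = 0.0244) in the second. The RNA count of SRSF2 thus fell where it was labelled as overexpressed alone. Counts per gene do not measure protein and do not part an introduced copy from the cell's own gene. The cause was not tested, and what follows on 3XSR and 1xSRSF2 means the libraries labelled so. SRSF3 stood at 402, 445 and 391 CPM in 3XCTL, 511, 501 and 513 CPM in 3XSR, 377, 342 and 416 CPM in 1xCtrl and 538, 509 and 513 CPM in 1xSRSF3. SRSF7 was at 293, 307 and 284 CPM in 3XCTL and 383, 403 and 402 CPM in 3XSR, and at 366, 360.4 and 374 CPM in 1xCtrl and 438, 441 and 428 CPM in 1xSRSF7. Both were higher than their control in the joint line and in their own single line, without overlap between libraries. SRSF2, which fell by 0.40 in 1xSRSF7, departed upward by 0.52 (SE 0.15, edgeR adjusted p = 0.0188), a call lost without 1xCtrl replicate 1 or 3 or when the median of all genes was set to 0. SRSF3 departed downward by -0.50 (SE 0.17, edgeR adjusted p = 0.0487), a call lost in most alternative fits. The departure of SRSF7 was -0.082 (95% interval -0.35 to 0.19) and that of MYC 0.16 (-0.14 to 0.46), and neither passed the test.

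Genes departed from additivity in both directions, and for more of them the sum was called and the joint effect was not than the reverse. At an adjusted p under 0.05, 2770 genes departed upward (11.2% of genes tested) and 1779 downward (7.22%). The joint effect itself was called for 5815 genes (23.6%), the sum for 5941 (24.1%), and the effects of 1xSRSF2, 1xSRSF3 and 1xSRSF7 for 6369 (25.8%), 7626 (30.9%) and 4989 (20.2%). Of the 4549 departures, 1923 (42.3%) had a joint effect of the same sign as the sum but smaller, 2534 (55.7%) had effects of opposite sign, and 92 (2.02%) had a joint effect larger than a sum of the same sign. For 2479 departures the sum was called and the joint effect was not, for 661 the reverse held, and for 492 both were called with opposite signs. The splits of the 4549 departures are partly set by the contrast, because the genes were picked by a departure in which the sum enters. At 5 CPM or more the median SE was 0.193 for the sum and 0.079 for the joint effect. The splits therefore cannot be read as a result about how the factors combine. Of the 5815 genes with a called joint effect, 1882 departed. Across the 11487 genes at 5 CPM or more, the joint effect and the sum correlated with Pearson's r of 0.387 and Spearman's rho of 0.294. This describes genes of the same libraries, which are not independent replicates.

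The balance between upward and downward calls depended on scaling. The median departure was 0.16 over all genes tested and 0.010 over genes at 5 CPM or more. With the median of all genes set to 0, 2004 genes were higher and 2713 lower, and with each library's trend in GC content removed, 3443 were higher and 3572 lower. The joint effect was also set against the mean of the single effects, in which 1xCtrl enters once: 2646 genes (10.7%) were higher and 1547 (6.27%) lower. In the plot of joint against summed effects, the called genes lie on both sides of the diagonal. For 23 of the 145 genes chosen to be named, exons overlap those of a second gene on the same strand in GENCODE release 29, and their counts may hold its reads, among them SRSF2, CEACAM6, RRS1, EIF6, MRPL12, MRPL33, RBM8A, NEAT1, SNHG15, SNHG32, MXD1, H3-3B, HSPE1, FEN1, PRC1, CLDN12, MUC1, KCNJ15, ASNS, IRF9, CD68 and DIO3OS.

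**Figure D1:**
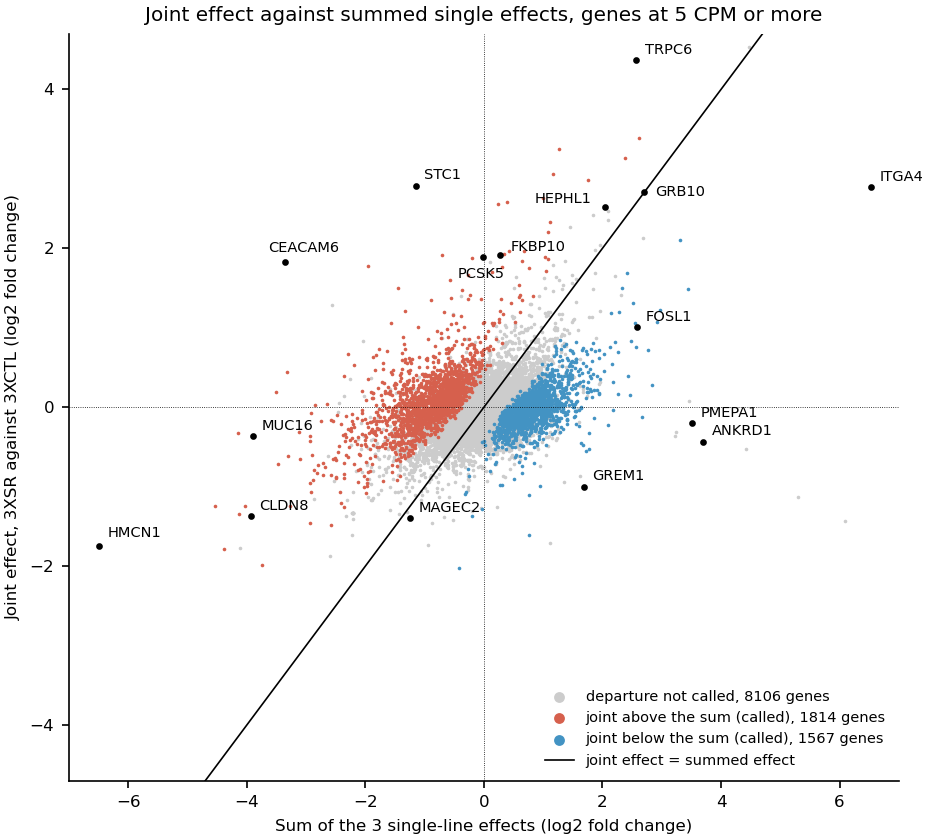
Joint log2 effect (3XSR against 3XCTL, vertical axis) against the sum of the log2 effects of the 3 single lines (horizontal axis) for 11487 genes at 5 CPM or more. Each point is a gene. Red and blue points departed upward and downward (edgeR adjusted p under 0.05), and the line marks equality. Red genes lie above the line and blue genes below it, and TRPC6 is among the few above a positive sum.

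Cytosolic ribosomal protein genes had the largest share of downward departures among the lists in the plot of gene lists. Of 74 cytosolic ribosomal protein genes tested, 51 departed downward and none upward, beside 7.22% and 11.2% of all genes, and all 74 estimates lay below 0. Their median departure was -0.83, made of a median joint effect of 0.012 and a median sum of 0.83. In the single lines 41, 44 and 57 of the 74 were called higher in 1xSRSF2, 1xSRSF3 and 1xSRSF7, beside 11.3%, 14.2% and 9.48% of all genes, and none lower. In 3XSR 3 were called higher and 1 lower, beside 13% and 10.6% of all genes. The summed level of the 74 genes was 26755 to 28781 CPM in 1xCtrl, below 31688 to 34613 CPM in 1xSRSF2, 31163 to 33604 CPM in 1xSRSF3 and 34204 to 35914 CPM in 1xSRSF7. It was 29334 to 30589 CPM in 3XCTL and 29917 to 30739 CPM in 3XSR, ranges that overlap each other and lie above 1xCtrl. Against the mean single effect, 18 of the 74 were lower and none higher (6.27% and 10.7% of all genes). The count of 51 fell to 28 without 1xCtrl replicate 1 and was 54 without replicate 2 and 46 without replicate 3.

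Among the ribosomal protein genes, RPS21, a small-subunit protein, was measured at 112, 97.6 and 113 CPM in 3XCTL and 127, 125 and 125 CPM in 3XSR. In the single table it was at 92.6, 146 and 86.5 CPM in 1xCtrl, 171, 164 and 172 CPM in 1xSRSF2, 148, 140.3 and 156 CPM in 1xSRSF3 and 174, 156 and 196 CPM in 1xSRSF7. It rose in all 3 single lines, with 1xSRSF3 overlapping its control, and the joint effect of 0.23 did not pass the test. RPL35 (departure -1.76, edgeR adjusted p = 0.0181) and RPS21 (-1.56, edgeR adjusted p = 0.0122) had 1 high 1xCtrl library each, replicate 2 at 209 and 146 CPM. Both calls were lost without 1xCtrl replicate 1 or 3. Ribosomal protein genes have many processed pseudogenes, and how reads were shared among them is not given in the sources used here.

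**Figure D2:**
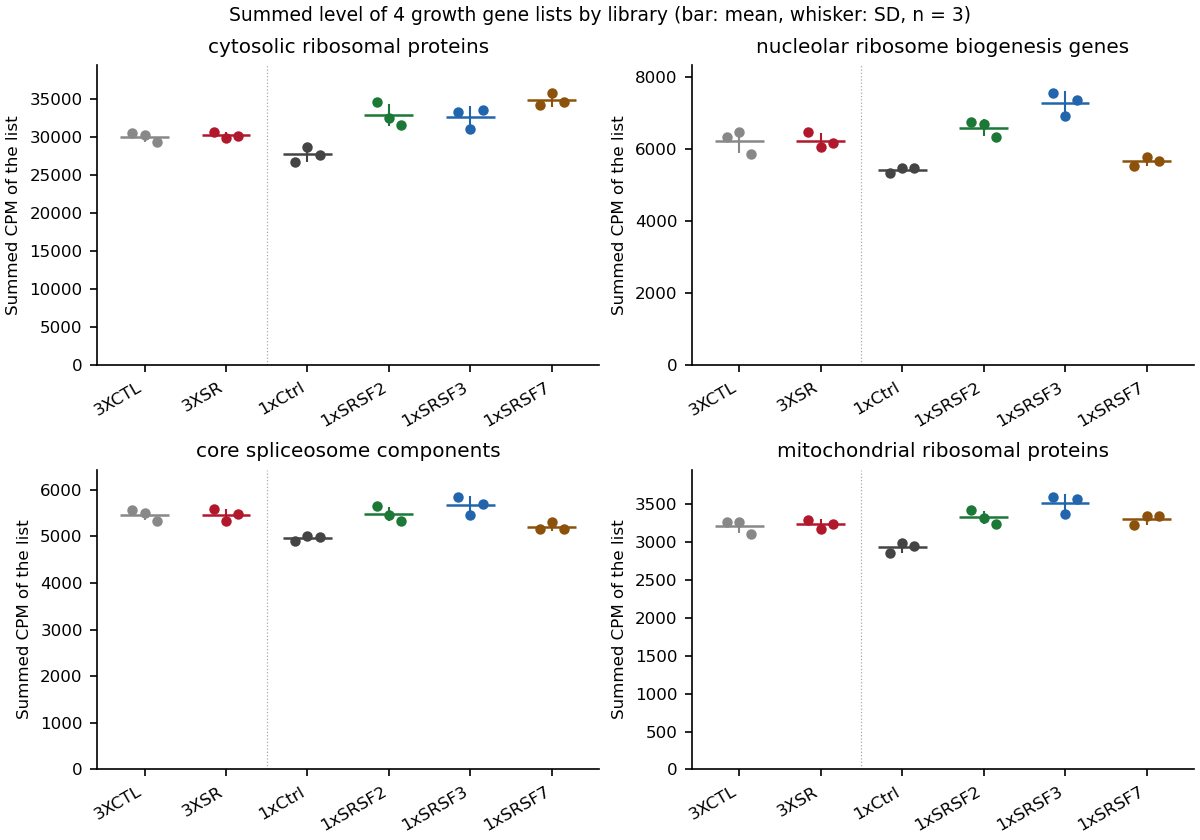
Summed CPM of 4 lists of growth genes in each of the 18 libraries (points), with the group mean (bar) and SD (whisker, n = 3). The dotted line parts the 2 count tables. In each panel 3XCTL and 3XSR overlap, and the 1xCtrl libraries lie below those of every other group.

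Ribosomal protein mRNAs start with a pyrimidine tract (the TOP motif), through which their translation is regulated, and RefSeq's promoter windows (GRCh38.p14; 58 of the 74 genes matched) were searched for it. A run of at least 8 pyrimidines on the transcribed strand within 2 bases of the annotated start was found in 41 of the 58 (70.7%), beside 8.64% of 27305 promoters in all and 9.25% of those of genes tested. In 37 of the 58 (63.8%) the run held the first annotated base itself, beside 4.798% and 5.05%. In the other lists searched, a run near the start was found in 21.2% of translation factors, 14.3% of TGF-beta genes, 12.1% of ribosome biogenesis genes, 11.4% of spliceosome genes, 8.82% of squamous genes and 5.797% of mitochondrial ribosomal protein genes. The windows below run from 40 bases before to 10 bases after the start of 4 such genes with a called departure, with the run in capitals. RPL35 lies at chr9:124861948-124861997 (minus strand), RPS21 at chr20:62387063-62387112 (plus strand), RPS9 at chr19:54200818-54200867 (plus strand) and RPL19 at chr17:39200243-39200292 (plus strand). In RPL35 and RPS21 the run of 15 goes on past the printed end. In RPL19 the run ends at the base before the annotated start and so lies outside the annotated transcript.
RPL35: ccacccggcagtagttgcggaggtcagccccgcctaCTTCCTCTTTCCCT
RPS21: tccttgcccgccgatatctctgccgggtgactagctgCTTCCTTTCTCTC
RPS9: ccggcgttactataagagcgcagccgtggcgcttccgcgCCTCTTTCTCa
RPL19: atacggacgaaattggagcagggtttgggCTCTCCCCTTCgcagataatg

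Of the nucleolar genes that assemble ribosomes, 40 were tested. Of these, 21 departed downward and none upward, beside 7.22% and 11.2% of all genes. The downward count was 16 without 1xCtrl replicate 1. The median departure was -0.74, the median joint effect -0.0069 and the median sum 0.71. Against the mean single effect 14 were lower and 0 higher, beside 6.27% and 10.7% of all genes. In the single lines, 34 of the 40 were called higher in 1xSRSF3, 23 in 1xSRSF2 and 7 in 1xSRSF7, beside 14.2%, 11.3% and 9.48% of all genes; whether the lines differ was not tested. MRTO4, a factor of large-subunit assembly, was at 77.3, 78.3 and 76.03 CPM in 3XCTL and 72.6, 71.1 and 74.3 CPM in 3XSR. It was at 54.96, 63.9 and 63.4 CPM in 1xCtrl, 87.5, 94.3 and 83.4 CPM in 1xSRSF2, 94.5, 86.1 and 98.3 CPM in 1xSRSF3 and 72.3, 73.5 and 69.4 CPM in 1xSRSF7. It rose in each single line, while the joint effect of -0.088 did not pass the test, and the departure was -1.48 (SE 0.17, edgeR adjusted p = 2.9e-05). RRS1, another large-subunit assembly factor, departed by -1.48 and IMP3, a component of the small-subunit processome, by -1.402 (edgeR adjusted p = 0.00061 and 4.6e-05).

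Promoters of the ribosome biogenesis genes often hold the E-box CACGTG, the sequence bound by MYC with MAX and by other factors, which reads the same on both strands. It was found in the windows of 15 of 33 matched genes (45.5%), from 250 bases before to 50 after the start, beside 7.43% of all promoters and 9.49% of those of genes tested. The share was 21.2% for translation factors (7 of 33), 10.7% for TGF-beta genes, 8.696% for mitochondrial ribosomal protein genes, 4.55% for spliceosome genes and 3.45% for ribosomal protein genes, and none of 34 squamous genes held it. Of the genes with a called departure, NOP10 at chr15:34343276-34343331 (minus strand) and NAT10 at chr11:34105589-34105638 (plus strand) hold it before the start, marked here in capitals, with the windows starting 195 and 40 bases before the start. The NAT10 window runs 10 bases into the transcript.
NOP10: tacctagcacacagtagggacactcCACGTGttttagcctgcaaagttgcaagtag
NAT10: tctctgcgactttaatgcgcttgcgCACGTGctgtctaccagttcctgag

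Translation factors and mitochondrial genes followed. Of 41 translation factors, 21 departed downward and 1 upward (median -0.61), beside 7.22% and 11.2% of all genes. The downward count fell to 7 without 1xCtrl replicate 1. Against the mean single effect 6 were lower and 0 higher, beside 6.27% and 10.7% of all genes. EIF5A, which helps the ribosome past difficult sequences, was at 643, 608 and 639 CPM in 3XCTL and 592, 614 and 599.9 CPM in 3XSR, which overlap. Its levels were 401 to 476 CPM in 1xCtrl and 584 to 635, 523 to 543 and 547 to 568 CPM in the single lines, none overlapping the control, for a departure of -1.15 (SE 0.15, edgeR adjusted p = 8.9e-05). EIF6, an anti-association factor of the large subunit, departed by -1.27 although it was higher in 3XSR (111 to 112 CPM) than in 3XCTL (83.4 to 94.8 CPM), with a sum of 1.56. Of 77 mitochondrial ribosomal protein genes, 39 departed downward and 2 upward (median -0.65), beside the same 7.22% and 11.2%. The downward count was 26 without 1xCtrl replicate 1 and 57 with the GC trend removed. Against the mean single effect 23 were lower and 2 higher, beside 6.27% and 10.7% of all genes. Among the downward departures were MRPL36 at -1.19 and MRPL33 at -1.17. MRPL36 lost its call when the GC trend was removed.

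Of 71 nuclear genes of the respiratory chain, 25 departed downward and 1 upward (median -0.53), beside 7.22% and 11.2% of all genes. The downward count was 11 without 1xCtrl replicate 1 and 42 with the GC trend removed. Against the mean single effect 13 were lower and 0 higher, beside 6.27% and 10.7% of all genes. ATP5F1E, the epsilon subunit of ATP synthase, was at 90.6, 97.7 and 94.9 CPM in 3XCTL and 110.3, 105 and 108 CPM in 3XSR. It was at 80.98 to 87.1 CPM in 1xCtrl and 131 to 138, 115 to 120.0 and 123 to 135 CPM in 1xSRSF2, 1xSRSF3 and 1xSRSF7. It was higher than the control in all 4 lines, the joint effect was 0.19 against a sum of 1.75, and the departure was -1.56 (SE 0.13, edgeR adjusted p = 1.61e-06). Of the 15 transcripts of the mitochondrial genome, 0 departed in edgeR (0 also at an unadjusted p under 0.05), 0 in DESeq2 and 0 in limma-voom, and their median was 0.20. Without 1xCtrl replicate 1, 2 and 3 that median was 0.020, 0.44 and 0.102, with 1 transcript called upward without replicate 2. In the single lines, 10 of the 15 were called lower in 1xSRSF7 and 4 higher in 1xSRSF2, beside 10.8% and 11.3% of all genes. In 1xSRSF3, in 3XSR and in the sum 0 were called.

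Genes of DNA replication departed downward in 16 of 51 and upward in 2 (median -0.37), a count that fell to 8 without 1xCtrl replicate 1 and rose to 29 with the GC trend removed. In 3XSR 16 were called lower and 3 higher, beside 10.6% and 13% of all genes, and in the sum 16 were called higher and 3 lower, beside 10.5% and 13.6%. FEN1, the flap endonuclease of lagging-strand synthesis, was at 108, 103 and 104 CPM in 3XCTL and 90.9, 84.4 and 89.1 CPM in 3XSR. It was at 71.7, 79.5 and 75.3 CPM in 1xCtrl and 99.1 to 106, 79.01 to 88.3 and 85.4 to 89.7 CPM in the single lines. FEN1 fell in the joint line and rose in all 3 single lines, with 1xSRSF3 overlapping its control, for a departure of -1.101 (SE 0.15, edgeR adjusted p = 9.62e-05). CCNE2, a cyclin of the G1 to S transition, departed by -1.11, a call lost without 1xCtrl replicate 1. Of 51 mitosis genes, 6 departed downward and 1 upward, beside 7.22% and 11.2% of all genes. The downward count was 2 without 1xCtrl replicate 1 and 21 with the GC trend removed. PRC1, a spindle midzone protein, departed by -0.78 and ASPM, a spindle pole protein, by 0.87, the latter lost without 1xCtrl replicate 1 or 3. Of 58 histone genes 5 (8.62%) departed downward, a share near the 7.22% of all genes. Among them were the polyadenylated replacement variants H3-3B (-1.29), H3-3A (-0.67) and H2AZ1 (-0.78). Of 14 heat shock genes 2 (14.3%) departed downward, HSPE1 (-0.96) and DNAJA1 (-0.75). The heat shock count was 7 with the GC trend removed and 1, 3 and 4 without 1xCtrl replicate 1, 2 and 3, and H3-3A and DNAJA1 lost their calls without replicate 1. Without 1xCtrl replicate 2 the histone count was 13, without replicate 1 it was 2 and without replicate 3 it was 3. Polyadenylated RNA was selected, so the canonical histone mRNAs, which lack a poly(A) tail, are measured incompletely.

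**Figure D3:**
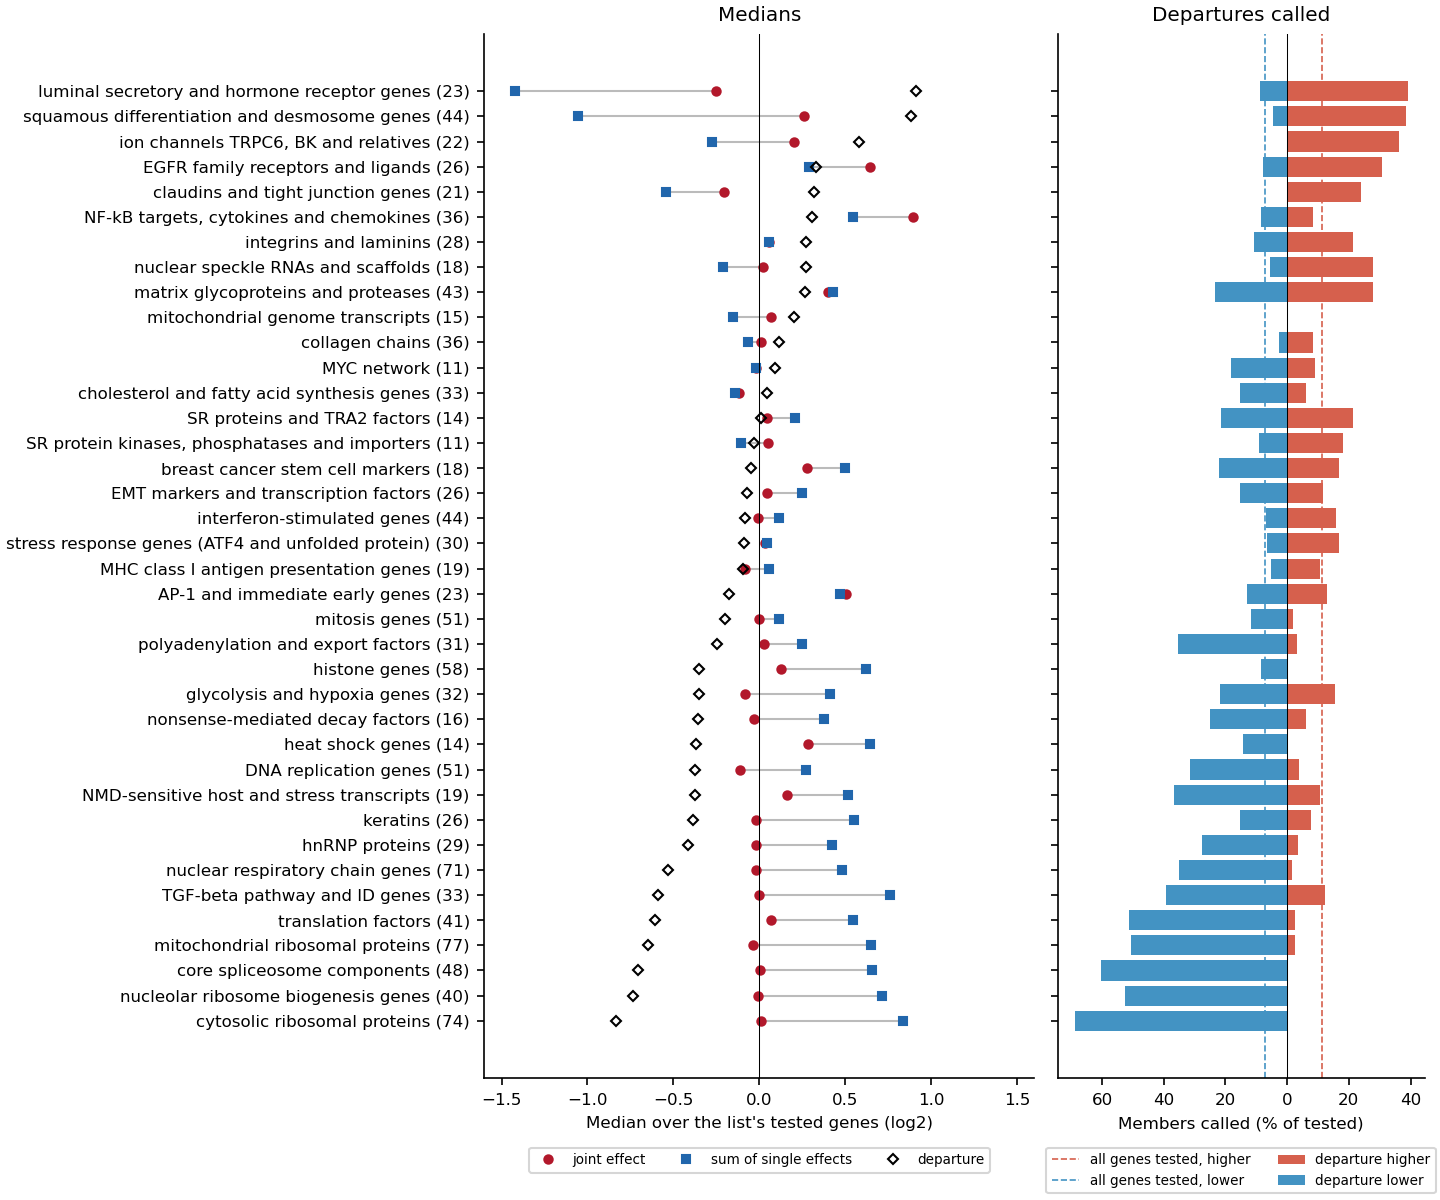
Left: median joint effect, median sum of single effects and median departure (log2) over the tested members of each gene list, with the number tested in brackets. Right: share of tested members called lower (blue, to the left) or higher (red, to the right), with dashed lines at the shares over all genes tested, 7.22% and 11.2%. Growth and splicing lists at the bottom have joint medians near 0 and sums above it, and the luminal and squamous lists at the top have sums below the joint medians.

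Core components of the spliceosome, the machine that SR proteins recruit, departed downward more often than upward. Of 48 tested, 29 departed downward and none upward, beside 7.22% and 11.2% of all genes. The medians were -0.71 (departure), 0.005 (joint) and 0.66 (sum), and 18 departed downward without 1xCtrl replicate 1. SNRPF, a ring protein of the spliceosomal snRNPs, was at 55.6, 57.3 and 54.4 CPM in 3XCTL and 57.6, 52.6 and 57.6 CPM in 3XSR, which overlap. It was at 43.4, 47.3 and 49.2 CPM in 1xCtrl and 66.00 to 69.6, 61.1 to 62.7 and 66.6 to 68.8 CPM in 1xSRSF2, 1xSRSF3 and 1xSRSF7, with no overlap between the control and any single line. Its departure was -1.49 (SE 0.14, edgeR adjusted p = 4.19e-06). LSM3, of the ring bound to U6 snRNA, and SNRPG, also in the snRNP ring, departed by -1.49 and -1.42. Against the mean single effect 18 of the 48 were lower and 1 higher, beside 6.27% and 10.7% of all genes.

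Of 29 hnRNP proteins, which often oppose SR proteins at exons, 8 departed downward and 1 upward (median -0.42), beside 7.22% and 11.2% of all genes. The downward count was 19 with the GC trend removed and 15 with the median set to 0. HNRNPF departed by -1.25 (SE 0.18, edgeR adjusted p = 0.000141). Its CPM was 339, 303 and 313 in 3XCTL and 271, 253 and 254 in 3XSR, and 232 to 268 in 1xCtrl against 280.1 to 306, 293 to 330.0 and 303 to 322 in the single lines. HNRNPF thus fell in the joint line and rose in each single line. HNRNPAB departed by -1.34 and HNRNPC by -0.95. Of 16 factors of nonsense-mediated decay, 4 departed downward and 1 upward (9 downward with the GC trend removed and 7 with the median set to 0), among them the exon junction proteins RBM8A (-1.19) and MAGOH (-0.97) and the release factor ETF1 (-0.79). Of 31 polyadenylation and export factors, 11 departed downward and 1 upward, a count that was 2 without 1xCtrl replicate 1 and 17 with the GC trend removed. The export cofactor NXT1 departed by -1.06 and the export complex member THOC3 by -0.70.

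The SR proteins themselves showed no common direction. Of 14 SR and TRA2 genes, 3 departed upward and 3 downward (median 0.008), beside 11.2% and 7.22% of all genes. These shares of all genes apply to the other lists of this paragraph as well. The counts were 1 and 1 without 1xCtrl replicate 1, 3 and 1 without replicate 2 and 1 and 3 without replicate 3. The median changed sign with scaling and was -0.027, 0.11 and -0.082 in these 3 fits. TRA2A, a splicing activator related to SR proteins, was at 95.3, 106 and 94.6 CPM in 3XCTL and 93.6, 102 and 99.00 CPM in 3XSR, which overlap. It was at 138, 117 and 136 CPM in 1xCtrl and lower in each single line, at 106 to 113, 90.3 to 98.1 and 97.00 to 105 CPM, and departed upward by 1.09 (SE 0.17, edgeR adjusted p = 0.000368). SRSF11 departed upward by 0.68 and SRSF9 downward by -0.61 (edgeR adjusted p = 0.00923 and 0.00368), the former lost without 1xCtrl replicate 1 or 3. Of 11 SR protein kinases, phosphatases and importers, the kinases CLK2 (0.70) and PRPF4B (0.67) departed upward and PPP1R8, a nuclear inhibitor of protein phosphatase 1, downward (-0.61). The CLK2 call was lost without 1xCtrl replicate 2 and the PRPF4B call without replicate 1 or 3. Of 18 nuclear speckle genes, 5 departed upward and 1 downward (2 upward without 1xCtrl replicate 1 and 3 without replicate 3). The architectural RNA NEAT1 was at 1068 to 1159 CPM in 3XCTL, 1211 to 1505 CPM in 3XSR, 1434 to 1655 CPM in 1xCtrl, 954 to 1130.3 CPM in 1xSRSF2, 1191 to 1875 CPM in 1xSRSF3 and 1109.8 to 1181 CPM in 1xSRSF7. It departed by 1.27 (SE 0.32, edgeR adjusted p = 0.0108), a call lost without 1xCtrl replicate 1, while PNISR and LUC7L, an SR-related protein and a U1 snRNP-associated protein, departed by 1.08 and 0.76. Of 19 host and stress transcripts known to be cleared by nonsense-mediated decay, 7 departed downward and 2 upward (2 downward without 1xCtrl replicate 1, and 1 upward without replicate 1 or 3). SNHG15 departed upward by 0.75 and SNHG32 downward by -0.74. Of 11 MYC network genes, MXD1, a MYC antagonist, departed downward by -1.03, MAX, the partner of MYC, by -0.71, and MXI1, another antagonist, upward by 0.82, lost without 1xCtrl replicate 1 or 3.

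Genes of squamous and luminal differentiation departed upward more often than downward. Of 44 squamous differentiation and desmosome genes, 17 departed upward and 2 downward, beside 11.2% and 7.22% of all genes, with a median departure of 0.88, a median joint effect of 0.26 and a median sum of -1.05. Without 1xCtrl replicate 2 the downward count was 5. In 1xSRSF3, 19 of the 44 were called lower and 1 higher, beside 16.7% and 14.2% of all genes, and in 3XSR 19 were called higher and 7 lower, beside 13% and 10.6%. In 1xSRSF2 13 of the 44 were called higher and 13 lower, and in 1xSRSF7 4 were higher and 12 lower. Of 23 luminal secretory and hormone receptor genes, 9 departed upward and 2 downward (median 0.91, joint -0.25, sum -1.42). Without 1xCtrl replicate 1 no luminal gene departed downward. In 1xSRSF3, 17 of the 23 were called lower and 0 higher, beside 16.7% and 14.2% of all genes. In 1xSRSF7, 13 were higher and 5 lower (9.48% and 10.8% of all genes), and in 1xSRSF2 6 were higher and 8 lower (11.3% and 14.5%). Against the mean single effect, 21 squamous genes were higher and 5 lower, beside 10.7% and 6.27% of all genes. Of the luminal genes, 8 were higher and 4 lower. The median difference from the mean single effect was 0.61 for the squamous and 0.063 for the luminal genes.

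CEACAM6, an adhesion glycoprotein of the epithelial surface, had the highest departure among genes at 5 CPM or more whose replicates lay within 2-fold of each other. It was at 7.31, 7.76 and 6.88 CPM in 3XCTL and 24.8, 24.5 and 28.5 CPM in 3XSR. In the single table it was at 11.8, 10.2 and 13.2 CPM in 1xCtrl, 9.56, 10.1 and 10.96 CPM in 1xSRSF2, 1.88, 1.83 and 1.903 CPM in 1xSRSF3 and 9.04, 8.52 and 7.13 CPM in 1xSRSF7. It rose in the joint line and fell most in 1xSRSF3, where the 3 libraries were far below all others. The joint effect was 1.82, the sum -3.36 and the departure 5.19 (SE 0.26, edgeR adjusted p = 2.47e-09).

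SPRR3, a precursor of the cornified envelope, was at 3.07, 3.76 and 2.47 CPM in 3XCTL and 10.3, 10.9 and 10.7 CPM in 3XSR. It was at 3.44 to 5.37 CPM in 1xCtrl, 9.75 to 10.95 in 1xSRSF2, 0.998 to 1.11 in 1xSRSF3 and 1.51 to 2.49 in 1xSRSF7. SPRR3 rose in the joint line and in the libraries labelled 1xSRSF2 and fell in the other single lines, and the departure was 3.73 (SE 0.45, edgeR adjusted p = 3.74e-05). S100A8, a calcium-binding protein of inflamed squamous epithelium, was likewise highest in 3XSR and 1xSRSF2 and lowest in 1xSRSF3 (3XCTL 4.87 to 5.18, 3XSR 13.4 to 15.6, 1xCtrl 7.899 to 10.9, 1xSRSF2 13.5 to 15.7, 1xSRSF3 2.08 to 3.04 and 1xSRSF7 6.22 to 7.47 CPM) and departed by 2.96. SPINK5, an inhibitor of epidermal proteases, departed by 3.701 with a joint effect of 0.19 that did not pass the test and -2.33 in 1xSRSF3. RHCG, an ammonium transporter of squamous epithelium, departed by 1.998 (edgeR adjusted p = 0.000114).

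MUC16, the membrane mucin that carries the CA-125 antigen, was at 75.4, 67.4 and 90.6 CPM in 3XCTL and 62.9, 58.6 and 59.5 CPM in 3XSR, a joint effect of -0.37. It also fell in every single line, from 45.2 to 51.4 CPM in 1xCtrl to 26.7 to 29.1, 8.45 to 11.5 and 24.8 to 33.5 CPM, and departed by 3.53 (SE 0.32, edgeR adjusted p = 3.64e-06). MUC1, another membrane mucin, fell in the joint line too (-1.24) but by less than the sum (-3.27), and departed by 2.03. Of 21 claudin and tight junction genes, 5 departed upward and none downward in edgeR, beside 11.2% and 7.22% of all genes. With the GC trend removed 8 departed upward and 1 downward. CLDN8, a barrier claudin, was at 36.8, 36.5 and 37.3 CPM in 3XCTL and 13.5, 14.6 and 14.7 CPM in 3XSR, and at 26.01 to 31.9 CPM in 1xCtrl, 11.7 to 13.7 in 1xSRSF2, 4.32 to 4.91 in 1xSRSF3 and 28.5 to 28.98 in 1xSRSF7. It fell in the joint line, in 1xSRSF2 and in 1xSRSF3, for a sum of -3.92 and a departure of 2.56 (SE 0.19, edgeR adjusted p = 4.9e-07). The joint effect differed from the mean single effect by -0.058, which did not pass the test. Of 26 keratins, 2 departed upward and 4 downward, KRT4 by 1.53 and KRT6A by -0.98. Without 1xCtrl replicate 1, 2 and 3 the downward count was 1, 7 and 2, and the KRT6A call was lost without replicate 1 or 3.

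TGF-beta genes departed downward more often than upward. Of 33 genes of the TGF-beta pathway and its ID targets, 13 departed downward and 4 upward, beside 7.22% and 11.2% of all genes. The upward count was 2 without 1xCtrl replicate 1 or 3, and the medians were -0.59 (departure), -0.00044 (joint) and 0.76 (sum). Against the mean single effect 8 were lower and 6 higher, beside 6.27% and 10.7% of all genes, with a median of -0.047. PMEPA1, a feedback inhibitor induced by TGF-beta, was at 10.9, 8.63 and 11.01 CPM in 3XCTL and 8.99, 8.896 and 8.67 CPM in 3XSR, which overlap. It rose from 6.08, 6.04 and 6.003 CPM in 1xCtrl to 19.04, 19.8 and 19.2 CPM in 1xSRSF2, 16.8, 14.7 and 18.4 CPM in 1xSRSF3 and 7.02, 7.496 and 8.93 CPM in 1xSRSF7. The departure was -3.71 (SE 0.29, edgeR adjusted p = 5.64e-07). GREM1, a secreted BMP antagonist, fell from 36.6, 41.4 and 36.8 CPM in 3XCTL to 20.1, 18.7 and 18.6 CPM in 3XSR and rose in each single line (29.9 to 33.4, 24.3 to 25.8 and 21.4 to 22.05 CPM) over 1xCtrl (16.3 to 18.2 CPM). Its departure was -2.68 (SE 0.17, edgeR adjusted p = 8.78e-08). ID4, a helix-loop-helix inhibitor, departed by -2.31 with a joint effect of 0.16, which did not pass the test, and a sum of 2.46.

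ANKRD1, a cardiac ankyrin-repeat protein used as a readout of YAP activity, had the lowest departure among the genes eligible to be named. It was at 8.14, 8.55 and 6.804 CPM in 3XCTL and 5.79, 6.26 and 5.37 CPM in 3XSR. In the single table it was at 4.55, 4.26 and 4.82 CPM in 1xCtrl, 16.5, 16.5 and 15.2 CPM in 1xSRSF2, 10.99, 10.4 and 11.3 CPM in 1xSRSF3 and 6.55, 7.64 and 6.72 CPM in 1xSRSF7. It rose in all 3 single lines and fell in the joint line, with a departure of -4.13 (SE 0.26, edgeR adjusted p = 6.87e-08). Of 23 AP-1 and immediate early genes, 3 departed upward and 3 downward, beside 11.2% and 7.22% of all genes. The downward count was 1 without 1xCtrl replicate 1 and 5 without replicate 2. In the joint line 13 of the 23 were called higher, beside 13% of all genes. FOSL1, an AP-1 subunit of basal-like tumours, rose from 29.5, 23.2 and 26.5 to 52.2, 53.7 and 53.1 CPM in the joint line, and from 28.4 to 36.9 CPM in 1xCtrl to 73.7 to 83.4 in 1xSRSF2, 63.4 to 67.4 in 1xSRSF3 and 37.3 to 40.3 in 1xSRSF7. The departure was -1.58 (SE 0.24, edgeR adjusted p = 0.000268), and the joint effect differed from the mean single effect by 0.14 (edgeR adjusted p = 0.453). The nuclear receptor NR4A2 and the mRNA-decay factor ZFP36 departed upward by 1.21 and 1.08.

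Matrix genes departed both ways. Of 43 matrix glycoproteins and proteases, 12 departed upward and 10 downward, beside 11.2% and 7.22% of all genes. Their median was 0.26, or -0.089 without 1xCtrl replicate 2 and 0.15 without replicate 3. HMCN1, a large basement membrane protein, was at 32.3, 33.8 and 34.4 CPM in 3XCTL and 10.5, 9.43 and 10.1 CPM in 3XSR. It fell from 27.5, 21.5 and 26.6 CPM in 1xCtrl to 5.27, 5.54 and 4.999 CPM in 1xSRSF2, 4.31, 3.77 and 4.57 CPM in 1xSRSF3 and 7.57, 8.75 and 7.75 CPM in 1xSRSF7. HMCN1 fell in all 4 lines (-1.74 in the joint line and -1.65 to -2.58 in the single lines), and the departure from the sum was 4.74 (SE 0.23, edgeR adjusted p = 2.47e-09) and that from the mean single effect 0.42 (edgeR adjusted p = 0.0223). MMP13, collagenase 3, departed by 2.75 and NPNT, an integrin ligand of basement membranes, by -2.04.

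Of 28 integrins and laminins, 6 departed upward (3 without 1xCtrl replicate 1) and 3 downward, beside 11.2% and 7.22% of all genes. ITGA4, the alpha-4 integrin, rose in every line, from 0.937, 0.742 and 0.709 CPM in 3XCTL to 6.25, 5.14 and 4.92 CPM in 3XSR, and from 1.54 to 1.798 CPM in 1xCtrl to 5.67 to 6.31, 9.01 to 11.2 and 6.32 to 8.19 CPM in the single lines. Its joint effect was 2.77, beside a largest single effect of 2.56 in 1xSRSF3, and the departure was -3.77 (SE 0.37, edgeR adjusted p = 5.42e-06). The integrin ITGB8 and the laminin LAMA4 departed upward by 1.42 and 1.08. Of 36 collagen chains, 3 departed upward and 1 downward, shares below the 11.2% and 7.22% of all genes. COL13A1 departed by 1.74, COL8A2 by 1.59 and COL4A1 by -1.22. Without 1xCtrl replicate 2, 6 collagen genes departed downward and their median moved from 0.12 to -0.90, and without replicate 3 it was 0.62. Of 26 EMT markers, 3 departed upward and 4 downward, beside the same 11.2% and 7.22%. The counts were 1 and 3 without 1xCtrl replicate 1, and 2 and 2 without replicate 3. Among the downward ones were the epithelial repressor OVOL1 (-1.39) and fibronectin (FN1, -1.200). The OVOL1 call was lost without 1xCtrl replicate 1 or 3.

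**Figure D4:**
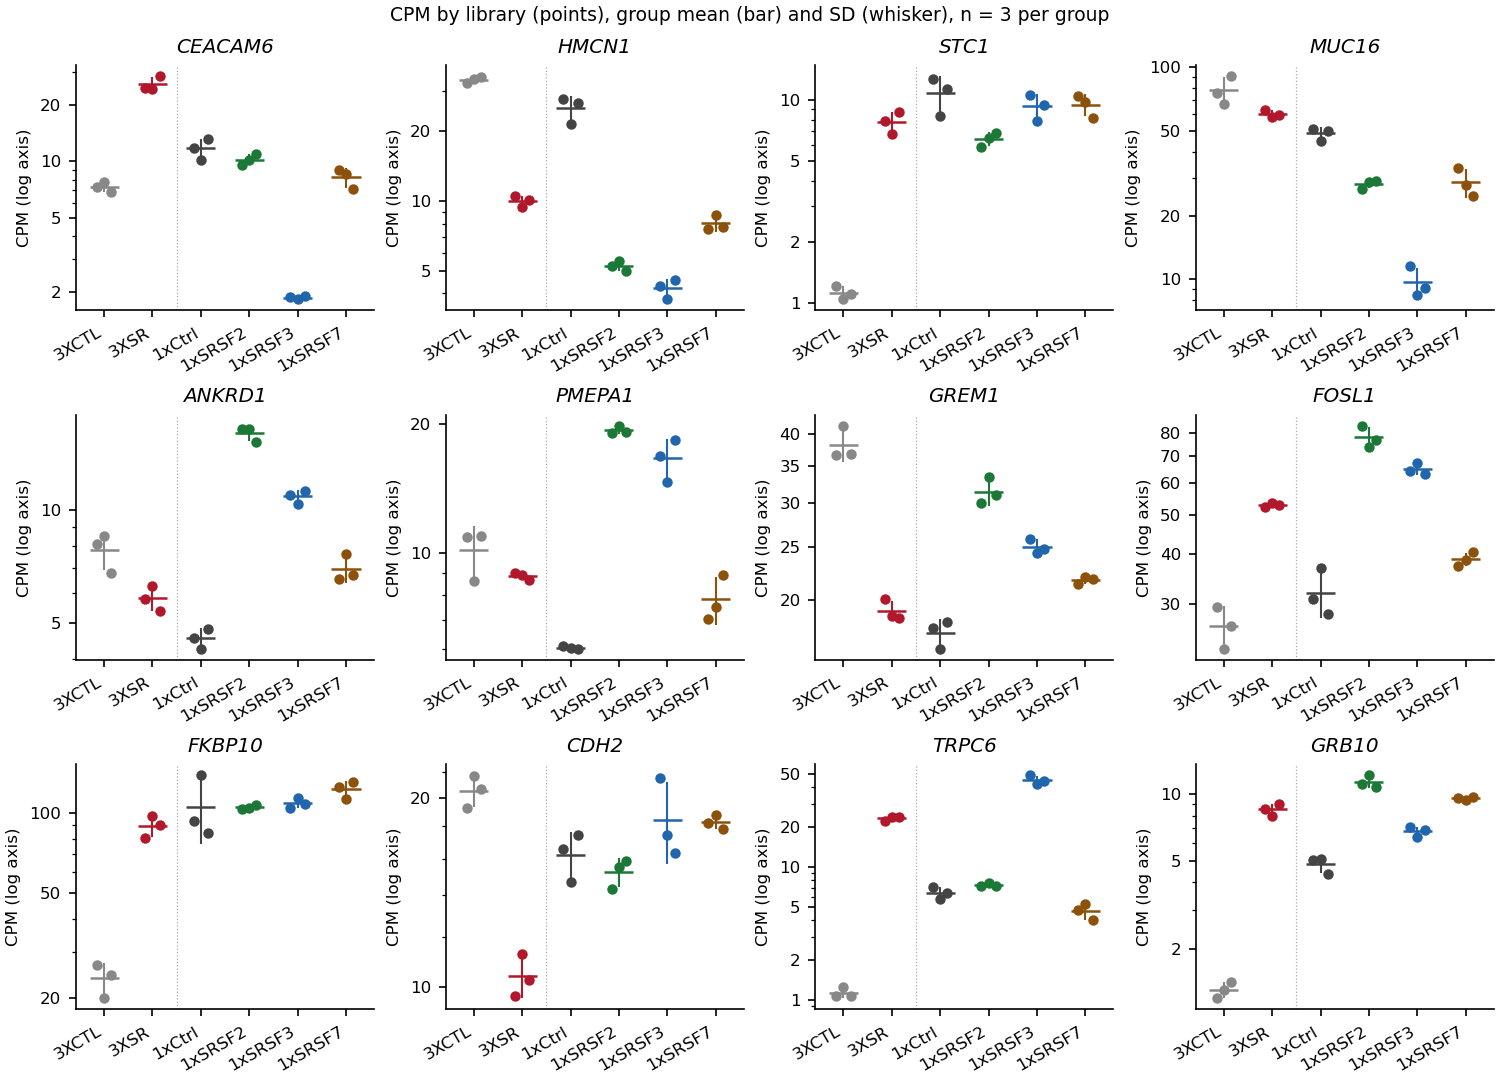
CPM on a log axis of 12 genes in the 18 libraries (points), with group mean (bar) and SD (whisker, n = 3); the dotted line parts the joint table (left) from the single table (right). CEACAM6 is highest in 3XSR and lowest in 1xSRSF3, ANKRD1 and PMEPA1 are higher than the control in each single line and not in 3XSR, FKBP10 and STC1 are lowest in 3XCTL, and TRPC6 is raised in 3XSR and 1xSRSF3.

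Ion channel genes departed upward more often than downward. Of 22 ion channel genes related to TRPC6 and the BK channel, 8 departed upward and none downward (median 0.58; 5 upward without 1xCtrl replicate 1, and 1 downward without replicate 2), beside 11.2% and 7.22% of all genes. In 2 of the 8, TRPC6 and KCNMA1, the joint effect exceeded a sum of the same sign; in 3 it was smaller than such a sum, and in 3 the signs were opposed. TRPC6, a receptor-operated calcium channel, was at 1.07, 1.25 and 1.08 CPM in 3XCTL and 22.1, 24.00 and 23.8 CPM in 3XSR. It was at 7.03, 5.71 and 6.41 CPM in 1xCtrl, 7.15, 7.57 and 7.25 CPM in 1xSRSF2, 48.96, 42.1 and 44.8 CPM in 1xSRSF3 and 4.75, 5.28 and 3.98 CPM in 1xSRSF7. It rose in the joint line and in 1xSRSF3 and fell in 1xSRSF7, and the joint effect of 4.36 exceeded the sum of 2.57 by 1.79 (SE 0.26, edgeR adjusted p = 0.000161). The 3XCTL level was below every library of the single table. KCNMA1, the pore of the BK potassium channel, was at 1.04 to 1.29 CPM in 3XCTL, 12.5 to 12.9 CPM in 3XSR, 6.88 to 7.76 CPM in 1xCtrl and 11.1 to 11.6, 16.2 to 18.3 and 11.8 to 12.4 CPM in the single lines. Its departure was 0.78 (SE 0.21, edgeR adjusted p = 0.0146), lost without 1xCtrl replicate 2. KCNJ15, an inward rectifier, departed upward by 1.48 with a joint effect of 0.17 that did not pass the test.

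Of 26 EGFR family receptors, ligands and feedback genes, 8 departed upward and 2 downward (5 upward without 1xCtrl replicate 1), beside 11.2% and 7.22% of all genes. Of the 26, 17 exceeded the mean single effect and 1 lay below it, beside 10.7% and 6.27% of all genes. SPRY4, a feedback inhibitor of receptor signalling, rose from 9.12, 9.48 and 8.49 CPM in 3XCTL to 22.6, 23.9 and 25.4 CPM in 3XSR, while the single table read 16.1 to 18.9 CPM in 1xCtrl, 24.1 to 26.9 in 1xSRSF2, 15.1 to 15.7 in 1xSRSF3 and 10.4 to 12.9 in 1xSRSF7. It departed by 1.64 (SE 0.21, edgeR adjusted p = 7.02e-05). The ligand EGF fell in each single line (35.7 to 42.7 CPM in 1xCtrl to 21.4 to 22.05, 23.3 to 25.8 and 27.4 to 30.1 CPM) and overlapped between 3XCTL and 3XSR (29.2 to 31.5 and 28.8 to 30.5 CPM), for a departure of 2.01 (SE 0.17, edgeR adjusted p = 1.39e-06). The ligand TGFA rose in the joint line and departed downward by -0.90.

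Other genes had departures as large. STC1, stanniocalcin-1, a secreted regulator of calcium and phosphate, was at 1.21, 1.05 and 1.11 CPM in 3XCTL and 7.88, 6.81 and 8.69 CPM in 3XSR. The single table was at 8.300 to 12.7 CPM in 1xCtrl, 5.89 to 6.88 in 1xSRSF2, 7.84 to 10.6 in 1xSRSF3 and 8.17 to 10.5 in 1xSRSF7. The 3XCTL libraries were below all 15 others, and the departure was 3.94 (SE 0.38, edgeR adjusted p = 4.14e-06). PLCXD3, a phospholipase-domain protein, and CALB2, the calcium buffer calretinin, fell in each single line and departed by 3.82 and 3.77. In the joint line PLCXD3 fell by less (-0.33) and CALB2 rose (0.45). PLCXD3 was at 39.6 to 42.1 CPM in 3XCTL, 29.6 to 35.9 CPM in 3XSR and 30.3 to 42.8, 8.84 to 9.99, 20.6 to 21.3 and 15.3 to 16.2 CPM in the single table. SLC25A27, a mitochondrial carrier, rose in the joint line and fell in the sum, departing by 2.97. Downward, LBH, a transcription cofactor of basal mammary cells, departed by -2.79 and CES1, a carboxylesterase, by -2.56, both raised in 1xSRSF2 and 1xSRSF7. PAPSS2, which makes the sulphate donor PAPS, fell from 22.97, 23.9 and 21.8 to 8.295, 6.92 and 7.34 CPM in the joint line and departed by -2.37 (SE 0.24, edgeR adjusted p = 7.29e-06). EMC6, of the ER membrane complex, departed by -2.32, STOX2 by -2.07 and MACROH2A2, a histone variant of silent chromatin, by -1.93.

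For some genes the joint effect was called and no single effect was. By the rule of a called joint effect, a called departure in the same direction and no called single effect, 125 genes were higher and 36 lower, of which 48 and 26 were at 5 CPM or more. FKBP10, a chaperone of collagen folding, was at 26.8, 20.01 and 24.6 CPM in 3XCTL and 80.9, 97.9 and 90.01 CPM in 3XSR. In the single table it was at 93.6, 139 and 84.5 CPM in 1xCtrl, 104, 105 and 108 in 1xSRSF2, 105, 114 and 109 in 1xSRSF3 and 126, 114 and 131 in 1xSRSF7. The 3XCTL libraries were below all 15 others and 3XSR overlapped 1xCtrl, with a departure of 1.64 (SE 0.38, edgeR adjusted p = 0.00776). PCSK5, a proprotein convertase, was at 2.69 to 2.898 CPM in 3XCTL and 9.88 to 10.9 CPM in 3XSR beside 9.75 to 10.6 CPM in 1xCtrl, and departed by 1.91. PPP4R3C, C1RL-AS1 and the water and glycerol channel AQP3 had the next highest joint effects (1.77, 1.37 and 1.16).

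CDH2, the mesenchymal cadherin, showed another pattern. It was at 19.3, 21.6 and 20.7 CPM in 3XCTL and 9.68, 11.3 and 10.3 CPM in 3XSR. It was at 16.6, 14.7 and 17.4 CPM in 1xCtrl, 14.3, 15.5 and 15.9 in 1xSRSF2, 21.5, 17.5 and 16.3 in 1xSRSF3 and 18.3, 18.8 and 17.8 in 1xSRSF7. The 3XSR libraries were below all 15 others, and the departure was -1.24 (SE 0.25, edgeR adjusted p = 0.00241). The membrane remodelling ATPase EHD4 (-0.50) and ARMC7 (-0.59) fell in the joint line, with departures of -0.73 and -0.66 that were lost without 1xCtrl replicate 1 or 3. The departures of RTF1 and USP43 had an edgeR adjusted p of 0.0477 and 0.0455 and were lost in many alternative fits.

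The control of the joint table was compared with the single table for these genes. Among 10542 genes with a symbol, at 5 CPM or more and with replicates within 2-fold, 3XCTL lay outside all 12 libraries of the single table and 3XSR did not for 1529, while the reverse held for 138. Among the 74 of them with a called effect in the joint line only, these counts were 57 and 2. Those 74 were chosen by a called joint effect, in which 3XCTL enters. No matching count is given for 1xCtrl, whose summed levels lay below every other group in the growth lists plotted by library. Levels across the tables were not tested, and whether the 2 control lines differ by construct, by clone or by table cannot be told apart.

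Other genes with a large joint effect departed little. Of 181 such genes with a called joint effect of at least 1 in size (log2), 55 had a 95% interval of the departure between -1 and 1. GRB10, an adaptor that dampens insulin receptor signalling, rose from 1.198, 1.31 and 1.42 CPM in 3XCTL to 8.597, 7.95 and 9.02 CPM in 3XSR, and from 5.02, 5.11 and 4.36 CPM in 1xCtrl to 11.2, 12.1 and 10.7 in 1xSRSF2, 7.07, 6.396 and 6.89 in 1xSRSF3 and 9.56, 9.42 and 9.72 in 1xSRSF7. Its joint effect of 2.705 and sum of 2.71 left a departure with a 95% interval of -0.54 to 0.53. HEPHL1, a copper-dependent ferroxidase, rose by 2.52 in the joint line and 1.599 in 1xSRSF3, with an interval of 0.10 to 0.85, and NEFH, the heavy neurofilament chain, rose by 2.04 against a sum of 1.97. ABCC9, a potassium channel regulator, rose by 1.98 against a sum of 1.88. Downward, MAGEC2, a cancer-testis antigen, fell from 112 to 116 CPM in 3XCTL to 42.2 to 44.9 CPM in 3XSR (-1.39) against a sum of -1.24. SLC1A4, a neutral amino acid transporter, fell by 1.29 in the joint line and by 1.998 in 1xSRSF3, and LCN2, lipocalin-2, and the antisense RNA DIO3OS fell by 1.203 and 1.17 in the joint line with departures of 0.22 and -0.10. For 44 of the 55 genes, 3XCTL alone lay outside the range of the single table, so that joint and summed fold changes were alike within these limits while the control levels were not. The 55 were chosen by a large joint effect, in which 3XCTL enters. The same count over all 181 genes is not given, so it cannot be read as particular to genes that departed little.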

How the data were processed

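Polyadenylated stranded RNA-seq libraries of HCC1806 were sequenced as paired reads, per the labels' protocols. The authors deposited whole-number counts per gene in 2 tables of 60668 gene identifiers each, not scaled to a common total. Trimmomatic 0.39, STAR, StringTie 2.1.3b and the build GRCh38.p13 are named in the submitters' processing notes; their order, the annotation and the strand setting are not given in the sources used here. Reads of overlapping genes on opposite strands may therefore be mixed; 54 of the 145 genes in the text or its lists overlap an exon on the other strand in GENCODE release 29, and 75 overlap none. Symbols were found for 42044 identifiers.

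Both tables were joined by identifier and fitted together in R 4.3.3 with edgeR 4.0.16 (filterByExpr with a minimum count of 10 and total of 15, TMM scaling, robust glmQLFit, glmQLFTest). P-values were adjusted by Benjamini and Hochberg over all 24654 genes tested, at a threshold of 0.05, two-sided. A called gene passed this threshold, and SE and 95% intervals come from the same fit. CPM use TMM-scaled library sizes. Depth was 143269192 to 303323552 counts a library, and 3 libraries a group limit the precision.

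Genes named are the 4 targeted genes and, among genes with a symbol, at least 5 CPM and replicates within 2-fold in every group, the 8 highest and 8 lowest departures, the 5 highest and lowest effects of the joint line only, the 5 highest and lowest departures with opposed effects, the 4 highest and lowest additive effects, and up to 3 called members of each of 39 gene lists with the largest departures. The contrast, members and lists were chosen with earlier results of these data known. Lists are described by counts and medians without a set test. Promoters come from RefSeq (GRCh38.p14). The fit was tested on simulated data in which each gene had 1 spread for all groups. That test does not cover a control group with a larger spread. Alternatives were other scalings, filters, tests (DESeq2 1.42.0, voom in limma 3.58.1), a replicate block, removal of the GC trend in 50 bins, a minimum absolute log2 departure of 1, and leaving out each library. MYC-overexpressing libraries entered only the alternative with all 21 libraries. A few genes that the rule would name are not reported here.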

Additional observations from a re-analysis of the deposited data

How the results depend on the processing

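The count of departures (4549) was within 1.5 times of its value under RLE, upper-quartile and total-count scaling, the other filters, DESeq2, limma-voom and all 21 libraries, but was 7015 with the GC trend removed and 300 against a minimum absolute departure of 1 (263 higher and 37 lower). Against that minimum the joint effect was called for 381 genes, the sum for 644 and the difference from the mean single effect for 150. Downward departures numbered 3572 with the GC trend removed, 3328 with the block and the GC trend removed, and 2713 with the median set to 0. The shares called higher were 60.9% in the reported fit, 42.5% with the median set to 0, 49.1% with the GC trend removed, 53.6% with RLE, 51.9% with DESeq2, 66.2% with upper-quartile and 70.6% with total-count scaling. Scaling thus moved the median departure of all genes between 0 and 0.26. Leaving out 1 library at a time gave 2678 to 5973 departures, 1661 to 3090 higher and 1017 to 2883 lower. The extremes were the fits without 1xCtrl replicate 1 (lowest) and replicate 2 (highest), and without replicate 3 the count was 3599. The difference from the mean single effect was called for 3003 (without 1xCtrl replicate 1) to 6558 genes (without replicate 2). Of the list counts above 0, 25 of the 28 that held 1 or 2 members moved by over 1.5 times without one of the 1xCtrl libraries, as did 20 of 31 that held 3 to 9 and 6 of 12 that held 10 or more. Losing 1 member is enough to move a count of 1 or 2 past this limit, so these shares are not comparable between sizes. The cause of the moves was not tested. Of 135 named genes with a called departure, none changed sign, 97 stayed called under each setting other than the minimum of 1, and 31 also passed that. The most fragile calls were SRSF3, RTF1, USP43, GADD45B, ALYREF, ERAP2, PSMB8 and NOTCH3. On the linear CPM scale 57 of 130 named genes moved by more than the replicate spread. A departure on that scale cannot be computed where the summed falls exceed the control level, as for HMCN1. Such genes are not among the 130, and their departures are given on the log2 scale only.

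Replicate numbers did not pair libraries: same-numbered libraries' deviations correlated at 0.0032, -0.039 and -0.0061 in the joint table and, on average, -0.0075, -0.037 and -0.028 in the single table. With the replicate number as a block, 3597 departures were called, 2236 higher and 1361 lower, and with the GC trend also removed 6540.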

Other observations

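Of 36 NF-kB targets, cytokines and chemokines, 20 were called higher and 3 lower in 3XSR, beside 13% and 10.6% of all genes. Of the same 36, 3 departed upward and 3 downward (11.2% and 7.22% of all genes), with 7 and 4 without 1xCtrl replicate 2 and 1 upward without replicate 1 or 3, while 14 exceeded the mean single effect and 2 lay below it (10.7% and 6.27% of all genes). TNFAIP3, an inhibitor of NF-kB signalling, was at 28.1, 28.6 and 29.4 CPM in 3XCTL and 65.5, 65.3 and 65.3 CPM in 3XSR. It was at 42.4 to 42.8 CPM in 1xCtrl, 78.04 to 83.5 in 1xSRSF2, 102 to 109 in 1xSRSF3 and 39.6 to 41.04 in 1xSRSF7. TNFAIP3 rose in the joint line, with a departure of -0.96 (SE 0.12, edgeR adjusted p = 3.89e-05), and exceeded the mean single effect by 0.47 (edgeR adjusted p = 1.72e-05). BIRC3, an inhibitor of apoptosis, departed upward by 0.93, a call lost without 1xCtrl replicate 1 or 3. It fell in 1xSRSF2 (-0.85) and rose in 1xSRSF3 (0.82). The adhesion receptor ICAM1 departed upward by 0.86. Of 44 interferon-stimulated genes, 7 departed upward and 3 downward, beside 11.2% and 7.22% of all genes. The downward count was 0 without 1xCtrl replicate 1, 6 without replicate 2 and 10 with the GC trend removed. Upward departures included STAT2 (1.11), IRF9 (1.19) and OAS1 (0.98). STAT2 was at 62.03 to 64.9 CPM in 3XCTL, 70.3 to 79.4 CPM in 3XSR and 86.4 to 92.8, 76.2 to 80.5, 68.3 to 82.2 and 65.9 to 73.05 CPM in 1xCtrl and the single lines. Of 19 MHC class I genes, 2 departed upward and 1 downward, shares below the 11.2% and 7.22% of all genes, with ERAP1, a peptide-trimming protease, at 0.69. Without 1xCtrl replicate 1 none of the 19 was called, and without replicate 2 the downward count was 5.

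Among 32 glycolysis and hypoxia genes, 5 departed upward and 7 downward (12 downward without 1xCtrl replicate 2), beside 11.2% and 7.22% of all genes. These shares of all genes apply to the other lists of this paragraph as well. VEGFA, the angiogenic growth factor, rose from 215, 194 and 209.7 to 282, 309 and 313 CPM in the joint line. It fell from 344 to 382 CPM in 1xCtrl to 279.6 to 309 CPM in 1xSRSF3 and 296 to 309.9 CPM in 1xSRSF7. VEGFA departed by 1.197 (SE 0.16, edgeR adjusted p = 0.000104), the hypoxia marker CA9 by 1.84 and adrenomedullin (ADM) by -1.65. Of 30 stress response genes, 5 departed upward and 2 downward (1 upward without 1xCtrl replicate 3, 2 without replicate 1, and 0 and 6 downward without replicate 1 and 2). ASNS, asparagine synthetase, departed by 1.26 and the stress factor ATF3 by 0.79, whose joint effect of 1.38 exceeded a sum of 0.59, a call lost without 1xCtrl replicate 3. Of 33 cholesterol and fatty acid synthesis genes, 2 departed upward and 5 downward (7 and 3 without 1xCtrl replicate 2, and 1 upward without replicate 1 or 3), with the desaturase SCD at 0.82 and NSDHL, a sterol dehydrogenase, at -0.86. Of 18 stem cell markers, 3 departed upward and 4 downward (2 downward without 1xCtrl replicate 1), among them ALDH1A1, an aldehyde dehydrogenase, by 2.08 and THY1 by -1.86. Of the 14 markers of other cell types that were tested, 2 departed upward and 1 downward, among them LUM (2.78) upward and CD68 (-1.84) downward, the latter lost without 1xCtrl replicate 1 or 3. LUM, a matrix proteoglycan, was at 36.1 to 39.8 CPM in 3XCTL, 15.2 to 16.5 CPM in 3XSR and 16.2 to 22.7, 6.55 to 7.202, 5.396 to 6.83 and 11.6 to 12.8 CPM in the single table. Of 10 basal identity markers, EGFR departed upward and KRT6A downward, both named after their values were seen; neither was called without 1xCtrl replicate 1.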
